A study of Mus musculus with 22 samples.

Results

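H3K27ac, the acetylation of histone H3 at lysine 27 that marks active promoters and enhancers, was compared between Kupffer cells of A/J and BALB/cJ mice in 3 libraries per strain. The comparison covered every window on an autosome with a mean normalized count over 16 in these 6 libraries, which were 58970 of the 94171 autosomal windows and of the 96381 windows in all. Each window was 1000 bp wide and centred on an open chromatin peak, and its position is given in bp from the start site of the nearest gene, negative upstream. Both groups were untreated control male mice, 8 to 12 weeks old and on a standard diet, and their Kupffer cells were sorted by flow cytometry as CD45 positive, CD146 negative, F4/80 high and CD11b intermediate. The 3 C57BL/6J libraries made in the same way entered the normalization and the estimate of the spread, and are given beside the results. The labels number the libraries of a strain but do not say whether each came from a separate mouse, so p-values measure the spread between these samples, which may be technical. Reads of each strain were mapped to mm10 altered with that strain's small variants and not with larger structural ones, so a locus that a strain lacks could not be told apart from a locus without the mark by H3K27ac alone. Sequence reads of the unprecipitated chromatin of each strain, the ChIP input, are therefore given as tags beside those windows described below in which they differed by more than 2-fold at equal depth or were under 3 in either strain, and beside some others.

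Kupffer cells are the resident macrophages of the liver sinusoids. They take up bacteria, lipoproteins and dying red cells from portal blood, and they present antigen on MHC class II molecules, which are loaded in endosomes with the help of the invariant chain (*Cd74*) and the DM and DO molecules. *Ciita* encodes the coactivator that switches this group of genes on, and its partners bind an S, X and Y box upstream of each class II start site. A/J and BALB/cJ are old inbred strains with different *H2* haplotypes, and are known to differ in several alleles of innate immunity.

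To show the promoters that the MHC class II results below concern, the 130 bases before the start site of *H2-Aa*, *H2-Eb1*, *H2-Oa* and *H2-DMb1* are printed 5′ to 3′ in the direction of the gene, from RefSeq on GRCm38.p6. Capitals mark GATTGG, the letters of the Y box, or CCAATC, the same letters on the other strand. The reference is the C57BL/6J sequence, and no alleles of A/J or BALB/cJ were read here.
*H2-Aa*, chr17:34287824-34287953, minus strand: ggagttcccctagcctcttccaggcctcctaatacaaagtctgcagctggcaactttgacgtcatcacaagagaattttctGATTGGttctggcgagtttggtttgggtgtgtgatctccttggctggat
*H2-Eb1*, chr17:34305737-34305866, plus strand: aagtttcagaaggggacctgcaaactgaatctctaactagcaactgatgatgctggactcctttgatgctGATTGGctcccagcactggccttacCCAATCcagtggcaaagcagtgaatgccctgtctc
*H2-Oa*, chr17:34092249-34092378, plus strand: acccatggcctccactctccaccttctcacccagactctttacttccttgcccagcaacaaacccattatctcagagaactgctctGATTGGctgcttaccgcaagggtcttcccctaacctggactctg
*H2-DMb1*, chr17:34153061-34153190, plus strand: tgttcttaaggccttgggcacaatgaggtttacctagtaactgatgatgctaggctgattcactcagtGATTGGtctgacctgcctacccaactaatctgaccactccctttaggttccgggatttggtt
The letters in the 250 bases before a start site, on either strand, were found in 14.6% of 32851 RefSeq promoters and in 7 of the 8 promoters of *H2-Aa*, *H2-DMa* (2 starts), *H2-DMb1*, *H2-DMb2*, *H2-Eb1*, *H2-Oa* and *H2-Ob*. In the forward direction their first base lay at −49, −60, −44 and −62 from the start of *H2-Aa*, *H2-Eb1*, *H2-Oa* and *H2-DMb1*. The match is a description of the reference and not of a bound site.

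Away from promoters, 4 windows stand for loci that carried H3K27ac in one of these strains and in C57BL/6J and had nearly none in the other strain. Their central 200 bases in GRCm38 are printed because there the reference is the sequence of a strain with the mark. The window near *Tmem38a* was marked in A/J, and the windows near *Trmt61a*, *Myog* and *Spag9* in BALB/cJ. Capitals in the first mark ACTTCCTC, the reverse complement of GAGGAAGT, the core of the element bound by the macrophage factor PU.1, which stood in 8.03% of the central 200 bases of all windows tested and in neither direction in the other 3 sequences.
*Tmem38a*, chr8:72583153-72583352, plus strand: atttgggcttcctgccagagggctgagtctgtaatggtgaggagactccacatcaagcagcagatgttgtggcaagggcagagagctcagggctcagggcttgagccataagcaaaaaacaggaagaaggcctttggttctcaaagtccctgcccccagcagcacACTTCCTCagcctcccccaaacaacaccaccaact
*Trmt61a*, chr12:111694391-111694590, plus strand: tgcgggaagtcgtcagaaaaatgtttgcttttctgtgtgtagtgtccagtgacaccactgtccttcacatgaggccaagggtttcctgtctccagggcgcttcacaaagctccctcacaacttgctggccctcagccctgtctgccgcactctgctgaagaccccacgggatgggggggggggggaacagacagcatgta
*Myog*, chr1:134304741-134304940, plus strand: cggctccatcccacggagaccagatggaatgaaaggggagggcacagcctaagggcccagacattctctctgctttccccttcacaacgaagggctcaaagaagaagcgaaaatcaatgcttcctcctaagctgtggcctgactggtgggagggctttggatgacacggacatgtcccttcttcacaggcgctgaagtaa
*Spag9*, chr11:94074442-94074641, plus strand: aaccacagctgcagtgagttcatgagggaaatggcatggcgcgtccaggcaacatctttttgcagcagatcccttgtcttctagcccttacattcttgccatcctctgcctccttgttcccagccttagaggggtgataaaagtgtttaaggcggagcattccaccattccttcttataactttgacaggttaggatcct

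The 6 libraries held between 2291426 and 12014055 tags in the windows, and replicate 2 of both strains was the shallowest. In a principal component analysis of the 6 libraries the first component held 44.5% of the variance and parted the strains, while the second, with 26.7%, parted replicate 2 of both strains from replicates 1 and 3. Near the start sites of 10 Kupffer cell markers all 10 had a window above the filter and none was called different between strains. The counts of these 10 windows summed to 1332–1569 in A/J and 1481–1705 in BALB/cJ, and the nearest to a difference was *Clec4f*, a lectin of Kupffer cells, at 78.5 ± 14.8 in the A/J libraries and 146 ± 12.1 in those of BALB/cJ (SD, n = 3, log2 fold change −0.93, adjusted p = 0.0182). Among markers of other cells, the windows nearest the B cell genes summed to 17.5–44.9 in A/J and 27.5–33.8 in BALB/cJ, with *Cd79a* and *Pax5* among those having no window, and those of dendritic cells to 189–240 and 183–199. The sums were 43.3–59.6 against 67.5–105 for monocytes and neutrophils, 19.4–31.7 against 35.8–44.7 for T and NK cells, 38.6–72.9 against 52.6–80.2 for sinusoidal endothelial cells, 42.7–52.3 against 54.9–66.7 for hepatocytes and 3.88–11.9 against 1.69–9.16 for stellate cells, the first range being A/J. The monocyte and neutrophil, T and NK cell and hepatocyte sums did not overlap between the strains, being higher in BALB/cJ, and the part of other cells in the results below was not tested beyond these values.

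Most windows, 94.1% of those tested, lay within 2-fold between the strains, and 2198 windows, 3.73%, differed by more than 2-fold at a Benjamini-Hochberg adjusted p under 0.05 in edgeR's quasi-likelihood test. Such windows are named called windows here. A/J had more H3K27ac in 842 of them (1.43%), and BALB/cJ had more in 1356 (2.3%). Fold changes are those of A/J over the BALB/cJ value throughout. The median log2 fold change of all tested windows was 0.01. The called windows had a median log2 fold change of 1.66 where A/J was higher and −1.61 where BALB/cJ was higher, and 300 and 409 of them differed by more than 4-fold. In the strain that was higher, called windows had a median of 70.0 normalized counts for A/J and 69.4 for BALB/cJ, beside a median of 72.6 over both strains for all tested windows. The libraries of the 2 strains did not overlap in 2165 of the 2198, and in 19.3% of all tested windows. Within replicate numbers, 839 of 842 and 1346 of 1356 kept 1 sign in all 3 pairs, which the call itself largely fixed. The test had no term for the replicate number. With that number, which paired the libraries, as a block, the counts were 1243 and 2030. With single libraries left out, the counts of 842 and 1356 fell most without A/J replicate 3, to 559 and 950, and without BALB/cJ replicate 3, to 536 and 782.

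**Figure D1:**
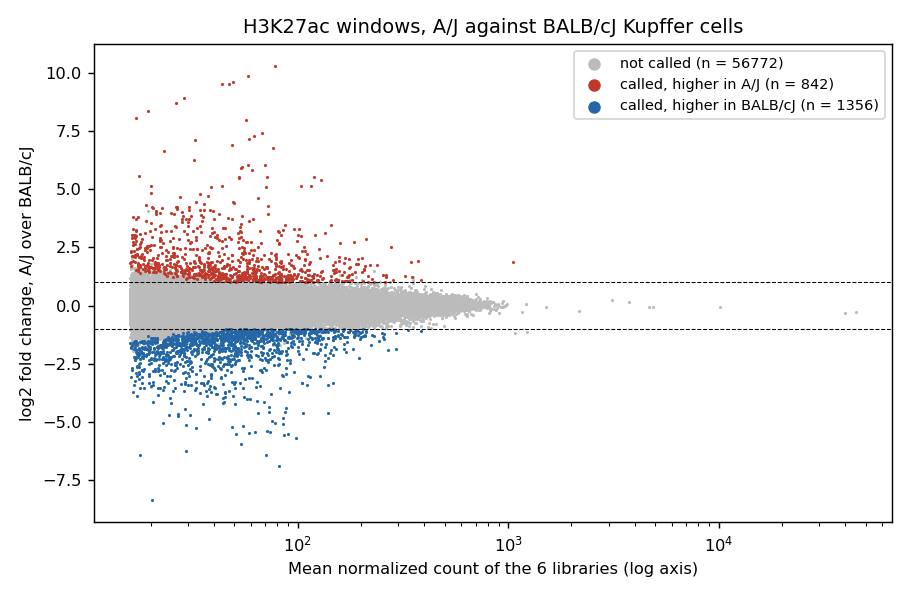
Each point is an autosomal window, with its mean normalized count over the 6 libraries on a log x axis and its log2 fold change on the y axis, positive where A/J was higher, and the dashed lines mark 2-fold. Red points are the 842 windows called higher in A/J and blue points the 1356 called higher in BALB/cJ, most of them at low and middle counts.

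Differences were rarer at promoters than away from them. Of 12209 windows that overlapped a promoter by their annotation, 76 were called for A/J, that is, higher there (0.622%), and 122 for BALB/cJ (0.999%), and with the replicate block 92 and 187. Without BALB/cJ replicate 3 the counts were 60 and 62, and without A/J replicate 3 they were 61 and 74. The share of called windows was 3.83% of 26553 intronic and 5.22% of 16105 intergenic windows. By distance, 1.62% of windows within 500 bp of a start site were called and 5.80% of those more than 100 kb away. With distance the share called higher in BALB/cJ went from 1.03% to 4.18%, while the share called higher in A/J was 0.599% within 500 bp and 1.62–1.87% in every class beyond 1 kb. Mean counts were higher near start sites, at 185 normalized counts within 500 bp and 102 beyond 100 kb, and the part of the count level in these shares was not tested.

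**Figure D2:**
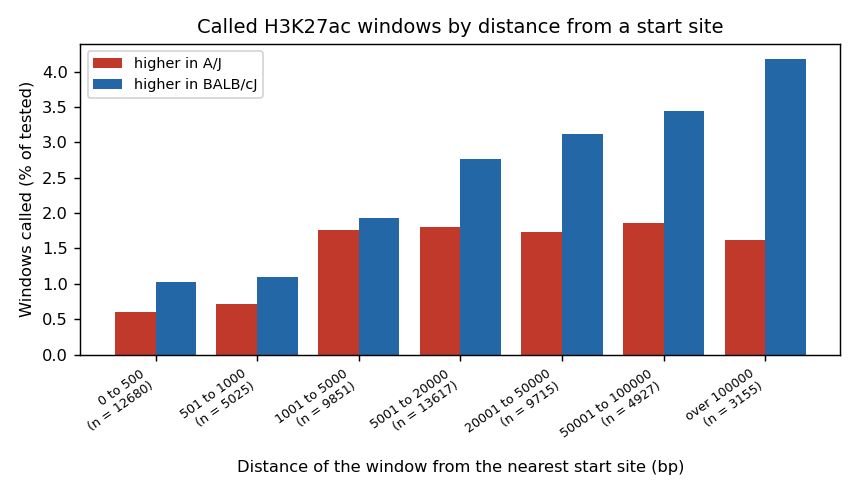
Bars give the percent of tested windows called higher in A/J (red) and in BALB/cJ (blue) in 7 classes of distance from the nearest start site, with the number of windows tested below each class. The BALB/cJ bars are taller in every class and reach 4.18% beyond 100 kb, where the A/J bar is at 1.62%.

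Called windows lay unevenly along the genome. On chromosomes 1, 11 and 17 the share called was 6.38%, 5.80% and 5.54%, against 1.45%, 1.42% and 1.30% on chromosomes 9, 10 and 14. On chromosome 17 the balance was turned to A/J, with 112 windows called for A/J and 45 for BALB/cJ. Of the 1898 bins of 1 Mb with a tested window, 62 held 8 or more calls, and they had 30.8% of all calls beside 6.76% of the tested windows. The bin with the most was 34–35 Mb on chromosome 17, which holds the MHC class II genes, where 42 of 155 windows were called for A/J and 1 for BALB/cJ. Next came 36–37 Mb on chromosome 1 (2 and 16 of 100 windows), 94–95 Mb on chromosome 11 (4 and 14 of 57), and the neighbouring bins of the *Cd300* genes at 114–116 Mb on chromosome 11. In all, 1209 of 12879 genes had a called window nearest to them, 462 with calls for A/J alone, 703 for BALB/cJ alone and 44 for both, and 219 had 3 or more. Neighbouring windows overlap at many loci, and taking 1 window per overlapping run, an alternative chosen after the data were seen, left 591 and 916 called.

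Of the gene lists compared, MHC class II had the highest share of called windows, 48.7%, and all were in 1 direction. Of 76 tested windows near 11 class II genes, 37 were called for A/J and none for BALB/cJ, with a median log2 fold change of 1.22 beside 0.01 for all windows. Every gene but *H2-DMa* and *H2-Ob* had a called window, and 74 of the 76 windows had a positive log2 fold change. In runs of overlapping windows the count was 23 of 41, and with single libraries left out in turn the count of calls was between 29 (without A/J replicate 1) and 36. The replicate block gave 43 for A/J and 1, at *H2-Ob*, for BALB/cJ. The summed levels of B cell and dendritic cell markers, which share these genes with macrophages, overlapped between the strains as given above, those being sums over the windows nearest the start sites. Over all tested windows near these markers, 2 of 9 were called for the B cell list, both at *Ms4a1*, and 2 of 13 for the dendritic cell list, both at *Zbtb46*. All 4 were higher in BALB/cJ. The other marker lists of other cells had no call, and with the replicate block the B cell list had 4, the hepatocyte list 1 and the monocyte and neutrophil list 1, all higher in BALB/cJ.

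*H2-Aa* and *H2-Ab1*, which encode the 2 chains of the I-A molecule, had 7 of 8 and 4 of 8 windows called. In the *H2-Aa* window at 786 bp (chr17:34286485-34287485 in mm10, intron) the A/J libraries had 300, 308 and 237 normalized counts, the BALB/cJ libraries 87.0, 52.6 and 63.5, and C57BL/6J 245, 254 and 334. The strains did not overlap, with BALB/cJ below both others, and the log2 fold change was 2.01 ± 0.24 (SE, adjusted p = 2.81e-06). The window over its promoter, which holds the Y box printed above, was called as well, at 272, 285 and 170 in A/J against 92.9, 101 and 110 in BALB/cJ (log2 fold change 1.24 ± 0.27, adjusted p = 0.00459). Upstream of *H2-Ab1*, at −1585 bp, counts were 398, 332 and 286 in A/J against 106, 108 and 95.7 in BALB/cJ (log2 fold change 1.72 ± 0.24, adjusted p = 2.45e-05). At its promoter, at −17 bp, they were 330, 249 and 320 against 165, 133 and 163. That window fell just short of 2-fold at a log2 fold change of 0.97 (adjusted p = 0.0139) and passed it without A/J replicate 2 or BALB/cJ replicate 1, at 1.07 and 1.02.

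The I-E genes followed. In the promoter window of *H2-Ea-ps*, the I-E alpha gene that is inactive in C57BL/6J (chr17:34344679-34345679), the A/J counts of 165, 220 and 144 stood above the BALB/cJ counts of 23.6, 9.16 and 16.1, and C57BL/6J had 7.99, 9.31 and 5.67. The log2 fold change was 3.29 ± 0.31 (adjusted p = 6.83e-08), and 7 of 8 windows of this gene were called. *H2-Eb1*, the I-E beta chain, had 7 of 12 windows called, the one of lowest p being at 6575 bp, with 118, 101 and 91.8 in A/J against 26.2, 27.5 and 9.49 in BALB/cJ (log2 fold change 2.39 ± 0.33, adjusted p = 1.83e-05). Its window at −76 bp, over the 2 Y box matches printed above, was at 355, 237 and 334 against 192, 165 and 135 with a log2 fold change of 0.93 (adjusted p = 0.0201), under the 2-fold needed for a call.

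The genes that load class II molecules were mixed. In the *Cd74* window at −728 bp the A/J libraries had 339, 311 and 281 counts and the BALB/cJ libraries 92.9, 64.1 and 70.8, again without overlap (log2 fold change 2.01 ± 0.25, adjusted p = 4.83e-06). Further in, at 2043 bp, *Cd74* had 544, 409 and 609 against 263, 236 and 244, a call (log2 fold change 1.08, adjusted p = 0.00886) that was lost without A/J replicate 3 at an adjusted p of 0.0708. At the start of *Cd74* itself, at −92 bp, counts of 250, 154 and 186 in A/J against 137, 146 and 118 in BALB/cJ did not pass the test (adjusted p = 0.244). *H2-Oa*, part of the DO molecule that restrains loading, had 4 of 5 windows called, and the one at −14108 bp had 85.4, 107 and 82.1 in A/J against 19.4, 4.58 and 12.4 in BALB/cJ (log2 fold change 2.72 ± 0.37, adjusted p = 1.81e-05). Input was also unequal there, at 36.5 tags in A/J against 11.5 in BALB/cJ. *H2-DMb1*, a chain of the DM molecule that promotes loading, differed at its promoter with 104, 125 and 75 against 13.5, 22.9 and 29.2 (log2 fold change 2.16 ± 0.32, adjusted p = 6.36e-05). *H2-DMa*, the other DM chain, was at 62.6, 53.4 and 57.6 in A/J against 54.0, 73.2 and 47.5 in BALB/cJ near its start (log2 fold change 0.05). *Ciita* had 2 of 11 windows called, with log2 fold changes of 1.12 and 1.39, and none of its 4 promoter windows was called. In the first of the 2, input was 16.5 tags in A/J against 28.0 in BALB/cJ. MHC class I, 80 windows near 26 genes, had 3 called for A/J and 2 for BALB/cJ (6.25%) and a median log2 fold change of 0.33, and with the replicate block the A/J count was 15. The library left out moved the A/J count between 1 (without A/J replicate 3 or BALB/cJ replicate 3) and 5. *H2-M5* was called in 2 windows for A/J, of which the one at −2993 bp lost the call without BALB/cJ replicate 3 (adjusted p = 0.0617), and the class I gene *H2-T24* in 2 windows for BALB/cJ.

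**Figure D3:**
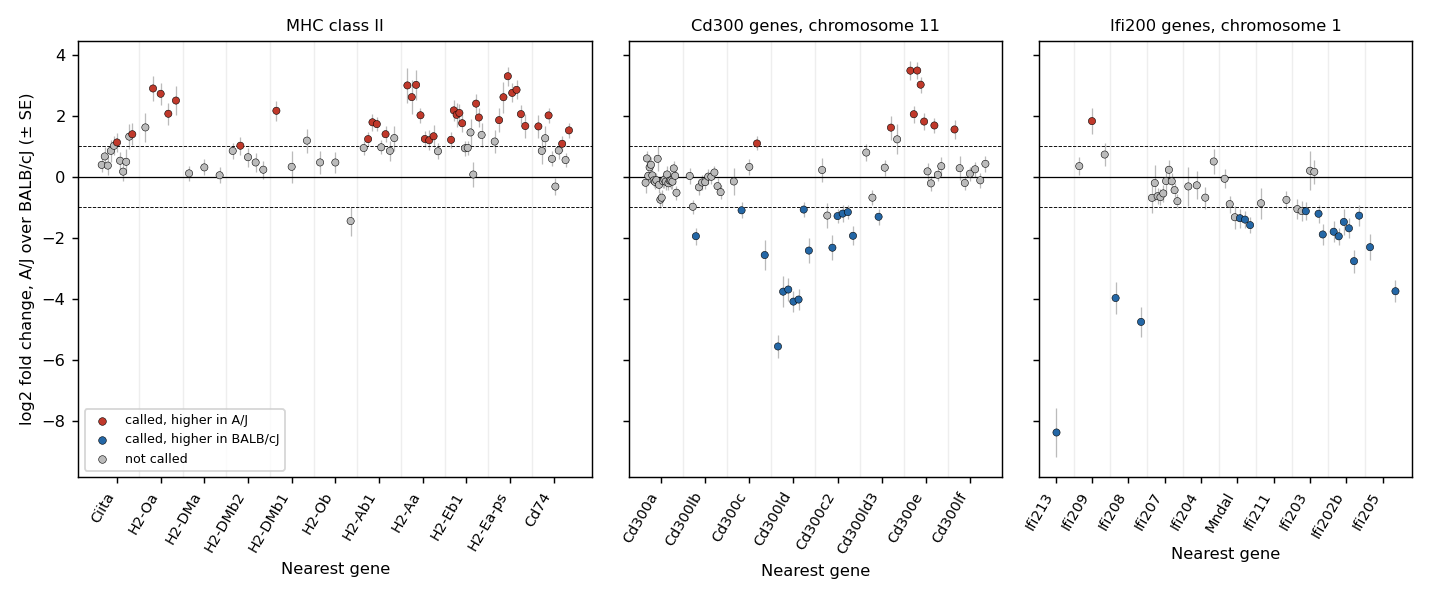
Each point is a tested window, placed by its nearest gene on the x axis and by its log2 fold change on the y axis with its SE, positive where A/J was higher, in red or blue where called and grey where not, and the dashed lines mark 2-fold. All called class II windows lie above 1, the *Cd300* genes hold both colours side by side, and of the *Ifi200* windows 17 are blue, 1 of *Ifi209* is red and 25 are grey; the *Ifi213* point is a fit to 0 counts in A/J and has no lower limit.

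The *Cd300* genes, a row of activating and inhibitory receptors of myeloid cells on chromosome 11, differed in both directions within the cluster. Of 77 tested windows 9 were called for A/J and 16 for BALB/cJ. *Cd300e*, an activating receptor of monocytes and macrophages, was called for A/J in 6 of 10 windows. In the window at 1176 bp (chr11:115060363-115061363) counts were 281, 258 and 246 in A/J against 25.3, 36.6 and 14.6 in BALB/cJ, with C57BL/6J at 53.3, 46.6 and 39.7. A/J stood alone above both other strains there, and the log2 fold change was 3.48 ± 0.29 (adjusted p = 8.76e-09). At the promoter of *Cd300e* counts were 149, 136 and 135 against 38.8, 57.2 and 30.7 (log2 fold change 1.81 ± 0.28, adjusted p = 9.89e-05). The neighbour *Cd300ld* went the other way in all 7 of its windows. In the window at 7827 bp (chr11:114981559-114982559) the A/J libraries had 1.47, 8.90 and 3.88 counts, the BALB/cJ libraries 175, 156 and 174 and C57BL/6J 9.33, 6.99 and 10.1, so here BALB/cJ stood alone (log2 fold change −5.55 ± 0.39, adjusted p = 6.95e-10). This did not hold for the whole gene. At −71, 1594, 2012 and 2373 bp C57BL/6J was marked as well and A/J alone was low. At 2012 bp C57BL/6J had 140, 116 and 147 counts against 124, 146 and 92.0 in BALB/cJ. At 6572 bp C57BL/6J was low, at 9.33, 23.3 and 6.93. *Cd300c2* had 5 of 7 windows called for BALB/cJ, *Cd300a* none of 24. The pooled ChIP input at the *Cd300e* and *Cd300ld* windows was 25.5 and 28.5 tags in A/J against 26.0 and 17.0 in BALB/cJ. At the *Cd300ld* windows at 1594, 2012 and 6572 bp it was lower in A/J, as the mark was, with 18.5, 21.0 and 20.0 tags against 37.5, 41.5 and 34.5.

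Beyond this cluster, 358 windows near 55 myeloid surface receptor genes, the *Cd300* genes included, had 15 calls for A/J and 24 for BALB/cJ (10.9%), with a median log2 fold change of −0.01. *Sirpa*, the inhibitory receptor that binds CD47 on cells spared from engulfment, had 3 of 30 windows called for A/J, and at −22398 bp counts were 109, 71.2 and 88.0 against 33.8, 20.6 and 20.4 (log2 fold change 1.84 ± 0.30, adjusted p = 0.00019). *Pirb*, an inhibitory receptor for MHC class I, had 25.0, 41.5 and 35.6 counts at its start in A/J and 0 in every BALB/cJ library, which was at least 33.9-fold with a floor of 3 counts for the 3 libraries together, but the pooled input there was also 0 in BALB/cJ and 7 tags in A/J. *Trem2*, a lipid receptor of macrophages, was called for BALB/cJ at 1092 bp, with 28.0, 50.4 and 32.3 against 64.2, 73.2 and 70.8 (log2 fold change −1.01, adjusted p = 0.0426), and the call was lost without A/J replicate 1 or 3 and without each BALB/cJ replicate, with adjusted p from 0.077 to 0.21. It was lost as well with library totals (0.063), without the filter on the mean (0.0532) and in a fit of the 6 libraries alone (0.0639).

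The *Ifi200* genes on chromosome 1, interferon-inducible DNA sensors and regulators of the AIM2-like family, leaned to BALB/cJ, with 17 of 43 windows called in that direction and 1 in the other. At the *Ifi205* promoter (chr1:174031349-174032349) counts were 7.36, 0 and 7.12 in A/J against 82.7, 87.0 and 87.6 in BALB/cJ, with C57BL/6J at 91.9, 76.8 and 109, so that A/J alone was low (log2 fold change −3.74 ± 0.37, adjusted p = 1.27e-07). Input was 30.0 tags in A/J against 18.5 in BALB/cJ. At the *Ifi208* promoter they were 2.21, 0 and 1.94 against 47.3, 52.6 and 57 (log2 fold change −4.75 ± 0.48, adjusted p = 2.39e-07), with input of 9.0 and 29.0 tags. *Ifi202b* had all 6 windows called, among them the one at 3886 bp with 13.3, 29.7 and 14.9 in A/J against 132, 110 and 98.6 in BALB/cJ, with C57BL/6J at 1.33, 16.3 and 5.04 (log2 fold change −2.76 ± 0.37, adjusted p = 1.79e-05). Input there was 30.5 tags in A/J against 57 in BALB/cJ. *Mndal* was called at its promoter at 28.0, 35.6 and 44.6 against 101, 91.6 and 129 (log2 fold change −1.58 ± 0.27, adjusted p = 0.000454), where input was 2.5 against 18.5 tags. The members are near-identical copies in part, so tags could be split between them or lost. At equal depth, input was more than 2-fold lower in A/J at all 6 *Ifi202b* windows, the 3 called *Mndal* windows, the *Ifi208* promoter and the *Ifi203* window at −19026 bp. It was 0 in A/J against 12 tags in BALB/cJ at the called *Ifi213* window. Many of the 17 calls thus lay where input differed in the same direction as the mark. At the *Ifi205* promoter it differed in the opposite one. *Ifi204*, *Ifi207* and *Ifi211* had no called window among 16.

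Among interferon response genes outside this family, 8 of 284 windows near 60 genes were called for A/J and none for BALB/cJ (2.82%, beside 3.73% of all windows). Their median log2 fold change was 0.13. The count was 4 without BALB/cJ replicate 3, and the replicate block gave 13 and 1. In the whole list of 324 windows near 68 genes, the *Ifi200* genes included, 9 were called for A/J and 16 for BALB/cJ (7.72%, median log2 fold change 0.11), and all 16 of the latter belonged to 5 *Ifi200* genes. *Gbp4*, a guanylate-binding protein of cell-autonomous defence, was at 92.8, 89.0 and 73.1 against 35.5, 22.9 and 29.9 in the window at 1265 bp (log2 fold change 1.47 ± 0.28, adjusted p = 0.00139). *Gbp2* was called at −1336 bp with a log2 fold change of 1.11 (adjusted p = 0.00556), a call lost without BALB/cJ replicate 1 (adjusted p = 0.0552) and without BALB/cJ replicate 3 (0.0626). Leaving out single libraries moved the A/J count for the list between 5 (without BALB/cJ replicate 3) and 11, and with the replicate block it was 14.

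Sensors and products of inflammasomes, the complexes that activate caspase-1, were called in 14 of 98 windows, 7 in each direction (14.3%, median log2 fold change 0.10). Of the 7 for A/J, 3 lay at *Nlrp1b* and 2 at *Nlrp1c-ps*, where input in BALB/cJ was 0 or 1 tag, as described below. *Nlrp3* and *Nlrc4* held the others, 1 each. *Mefv*, which encodes pyrin, the sensor of RhoA inactivation, was called for BALB/cJ in all 4 of its windows. At its promoter (chr16:3717646-3718646) counts were 0.736, 14.8 and 2.59 in A/J against 29.5, 59.5 and 46.7 in BALB/cJ, with C57BL/6J at 128, 149 and 125, an order of 3 levels without overlap (log2 fold change −3.68 ± 0.52, adjusted p = 3.32e-05). *Il1b*, the cytokine that caspase-1 matures, was called for BALB/cJ at −43143 bp, with 29.4, 14.8 and 16.2 against 103, 96.1 and 84.7 (log2 fold change −2.14 ± 0.30, adjusted p = 3.26e-05). In the other direction lay *Nlrp3*, the sensor of membrane damage, at 107, 89.0 and 128 in A/J against 50.7, 27.5 and 24.8 in BALB/cJ at 2520 bp (log2 fold change 1.65 ± 0.30, adjusted p = 0.000906). *Nlrc4*, the adaptor for bacterial flagellin, was at 31.7, 71.2 and 42.7 against 2.53, 4.58 and 5.84 in an intron (log2 fold change 3.35 ± 0.55, adjusted p = 0.000255). *Naip2*, a sensor upstream of it, was called for BALB/cJ at a log2 fold change of −1.05 (adjusted p = 0.0365) and not called when replicates 1 and 2 of A/J and replicates 1 and 3 of BALB/cJ were left out 1 at a time (adjusted p from 0.0648 to 0.191) or when the 6 libraries were fitted alone (0.0568).

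*Nlrp1b*, the sensor of anthrax lethal toxin, had no H3K27ac count in BALB/cJ at its promoter (chr11:71230358-71231358), where the A/J libraries had 82.5, 101 and 111 counts, the BALB/cJ libraries 0 and the C57BL/6J libraries 70.6, 74.5 and 77.5. That was at least 97.7-fold with the same floor. The pooled input held 42.5 tags in A/J against 0 in BALB/cJ, with C57BL/6J at 5.5 there, and the 2 windows called at the neighbouring *Nlrp1c-ps*, one of them its promoter, were as uneven. The promoter had 86.1, 113 and 140 counts in A/J against 0, 0 and 0.730 in BALB/cJ with input of 26.0 and 0. The window at −4458 bp had means of 34.7 and 0.487 with input of 41.0 and 1. BALB/cJ chromatin thus gave no or nearly no reads at these windows with or without the antibody, so an absent mark and absent mapping cannot be told apart. At *Nlrp1a*, the third copy, counts were 64.8, 23.7 and 49.2 against 39.7, 57.2 and 47.5, and none of 3 windows was called.

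Chemokines and their receptors leaned to BALB/cJ, with 19 of 250 windows called in that direction and 1 for A/J (8.0%, median log2 fold change −0.08). Without BALB/cJ replicate 1 or 3 the count for BALB/cJ was 9 and without A/J replicate 3 it was 11, and the replicate block gave 22, with 5 for A/J. Of the 19 calls for BALB/cJ, 9 lay at *Ccl6* and 3 at *Ccl28*. At all 3 *Ccl28* windows input was also more than 2-fold lower in A/J at equal depth. Scaled input there was 76.9 to 88.0 in A/J against 210 to 229 in BALB/cJ, so these 3 calls differed in the same direction as input. *Ccl6*, a ligand of CCR1, had 9 of 13 windows called. In the window at −7700 bp (chr11:83600287-83601287) counts were 26.5, 26.7 and 38.2 in A/J against 95.4, 110 and 110 in BALB/cJ, with C57BL/6J at 73.3, 69.9 and 78.7, with A/J below both others (log2 fold change −1.74 ± 0.27, adjusted p = 8.95e-05). The promoter of *Ccl6* was not called, at 210, 193 and 186 against 196, 188 and 194 (log2 fold change 0.03). Only *Ccl4* had a window called for A/J, at 3398 bp, with 65.5, 71.2 and 67.9 in A/J against 17.7, 22.9 and 9.49 in BALB/cJ (log2 fold change 2.13 ± 0.36, adjusted p = 0.000286), while its neighbour *Ccl3* was called for BALB/cJ at 18603 bp with 43.4, 29.7 and 33.6 against 96.2, 133 and 65.7 (log2 fold change −1.38 ± 0.29, adjusted p = 0.00401). The promoters of *Ccl3* and *Ccl4* were not called. *Ccl24*, the eotaxin made by macrophages, was called for BALB/cJ at a log2 fold change of −1.18 ± 0.26 (adjusted p = 0.00531). Among the receptors, *Cxcr4*, which binds CXCL12, was called for BALB/cJ at −155214 bp, with 22.8, 11.9 and 20.1 against 64.2, 64.1 and 62.8, while C57BL/6J had 2.66, 4.66 and 1.89 (log2 fold change −1.69 ± 0.33, adjusted p = 0.00174). Its promoter window was at 39.0, 35.6 and 68.6 against 87.0, 87.0 and 83.2 (log2 fold change −0.78, adjusted p = 0.146).

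Toll-like receptor and NF-κB genes had a share of calls near that of all windows, 3.30% of 333, of which 10 were for A/J and 1 for BALB/cJ (median log2 fold change 0.13), and 14 and 3 with the replicate block. *Tlr5*, the receptor for flagellin, had 4 of them in 13 windows. In the window at −26199 bp counts were 131, 116 and 151 in A/J against 32.9, 22.9 and 44.5 in BALB/cJ, with C57BL/6J at 53.3, 46.6 and 40.9 (log2 fold change 1.93 ± 0.27, adjusted p = 2.89e-05). *Tnfaip3*, which encodes the NF-κB inhibitor A20, was called for A/J beside its start site but not on it. In the window at −787 bp counts were 95, 53.4 and 122 in A/J against 23.6, 29.8 and 39.4 in BALB/cJ (log2 fold change 1.59 ± 0.31, adjusted p = 0.00158), although input was lower in A/J, at 26.0 against 48.0 tags. On the start site they were 286, 196 and 259 against 279, 204 and 288 (log2 fold change −0.05). *Il10*, the anti-inflammatory cytokine, had 2 windows called for A/J, and at 32907 bp counts were 174, 139 and 153 against 68.4, 41.2 and 54.0 (log2 fold change 1.48 ± 0.24, adjusted p = 0.000224). *Nfkb1*, the p105 and p50 subunit, was called for A/J at a log2 fold change of 1.18 (adjusted p = 0.0123), and lost the call without replicate 3 of A/J (adjusted p = 0.112) or of BALB/cJ (0.0705), and without replicate 2 of all strains, at 0.0623. The count for A/J was 7 without either replicate 3 and 19 without BALB/cJ replicate 1.

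Leptin receptor and JAK–STAT genes had 4 calls for A/J and 5 for BALB/cJ in 145 windows (6.21%, median log2 fold change 0.14). *Lepr*, the receptor of the hormone leptin, had 4 of 10 windows called for BALB/cJ. Near its start, at 303 bp, counts were 6.63, 8.90 and 12.3 in A/J against 31.2, 50.4 and 68.6 in BALB/cJ, with C57BL/6J at 9.33, 62.9 and 23.3. A/J and BALB/cJ did not overlap while C57BL/6J spanned both (log2 fold change −2.39 ± 0.51, adjusted p = 0.00477), and without A/J replicate 1 or BALB/cJ replicate 3 the adjusted p was 0.0508 and 0.0737. No window of the list was called for BALB/cJ when either of these 2 libraries was left out. *Il6st*, the gp130 chain shared by receptors of the interleukin-6 family, was called for A/J at −66405 bp, with 263, 202 and 292 against 108, 66.4 and 126 (log2 fold change 1.31 ± 0.25, adjusted p = 0.0013).

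Fibrosis and wound healing genes had 8 of 198 windows called, all for BALB/cJ (4.04%, median log2 fold change −0.23). Of all windows 3.73% were called in either direction and 2.3% for BALB/cJ. The replicate block gave 9 for BALB/cJ and 2, both at *Mmp9*, for A/J in the fibrosis and wound healing list. The count of this list for BALB/cJ was 3 without BALB/cJ replicate 3 and 5 without A/J replicate 3. *Tgfb3*, a ligand of the transforming growth factor β receptors, was at 29.4, 53.4 and 47.9 in A/J against 150, 126 and 158 in BALB/cJ in a window at 105297 bp (log2 fold change −1.80 ± 0.27, adjusted p = 6.83e-05). *Osm*, the gp130 cytokine oncostatin M, was at 4.42, 2.97 and 3.88 against 47.3, 9.16 and 35.8 (log2 fold change −3.02 ± 0.61, adjusted p = 0.00292). *Pdgfb* and *Pdgfc*, growth factors for stellate cells, had log2 fold changes of −1.12 and −1.29 (adjusted p = 0.00717 and 0.00646). The *Pdgfb* call was lost without A/J replicate 3 (adjusted p = 0.0927) and the *Pdgfc* call without A/J replicate 1, A/J replicate 3 or BALB/cJ replicate 3 (adjusted p from 0.05 to 0.09). Of the lipid and sterol genes, 3 of 370 windows were called, all for BALB/cJ (0.811%), 6 with the replicate block and 1 without BALB/cJ replicate 1 or 3, beside a median log2 fold change of −0.17. *Abcg1*, a cholesterol exporter, was at 28.0, 11.9 and 33.6 against 82.7, 77.8 and 73.8 in an intron (log2 fold change −1.51 ± 0.30, adjusted p = 0.00197), and the others were *Trem2*, described above, and *Abca1*, whose call at an adjusted p of 0.0422 was lost without either of A/J replicates 1 and 2 and of BALB/cJ replicates 1 and 3 (adjusted p from 0.102 to 0.169).

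The group that defines Kupffer cells was among those with the lowest shares of calls. Of 479 windows near 26 Kupffer cell identity genes 4 were called for A/J and 3 for BALB/cJ (1.46%, median log2 fold change −0.03), and 7 and 8 with the replicate block. The counts were between 1 and 6 when single libraries were left out, and 1 in each direction without BALB/cJ replicate 3. *Zeb2*, a factor that maintains macrophage identity, was at 66.3, 101 and 97.7 in A/J against 27.9, 29.8 and 23.4 in BALB/cJ in a window at −74500 bp (log2 fold change 1.71 ± 0.29, adjusted p = 0.000355), 1 of 64 windows of this gene. *Marco*, a scavenger receptor, was close to the threshold at 105, 113 and 105 against 58.3, 45.8 and 52.6 (log2 fold change 1.01 ± 0.24, adjusted p = 0.0107) and fell under 2-fold without replicate 2 of A/J or of BALB/cJ, at 0.99 and 0.95, and to an adjusted p of 0.0667 without BALB/cJ replicate 3. *Maf*, another identity factor, was called for BALB/cJ at 11, 5.93 and 11.6 against 43.1, 27.5 and 37.2 (log2 fold change −1.80, adjusted p = 0.00732, or 0.0575 without BALB/cJ replicate 1). Complement and Fc receptor genes had no call in 112 windows. Iron handling genes had 1 call for A/J and 3 for BALB/cJ in 189 windows, and none without A/J replicate 3. The window called for A/J, the *Slc11a2* window given next, was not tested in that setting. It kept its call in every alternative that tested it. At the iron transporter *Slc11a2*, an intronic window had 33.9, 35.6 and 47.9 counts in A/J against 2.53, 0 and 0 in BALB/cJ, with input of 34.5 and 31.5 tags. Its other 2 called windows were higher in BALB/cJ, at 19572 bp with a log2 fold change of −1.50 (adjusted p = 0.0216), and at 16771 bp with −1.02 (adjusted p = 0.0229). The call at 19572 bp was lost when replicate 2 or 3 of A/J, or 1 or 3 of BALB/cJ, was left out (adjusted p from 0.05 to 0.237). The bZIP transcription factors had 2 and 5 calls in 421 windows (1.66%), and 6 and 7 with the block, and the calls at *Atf6*, *Bach1*, *Fosl2*, *Jun*, *Maf* and *Nfe2l1* were each lost when 1 or more libraries were left out, at adjusted p from 0.0575 to 0.277. Housekeeping genes had 1 call in 110 windows, at the *Actb* promoter, with 167, 255 and 193 against 78.5, 108 and 96.4 (log2 fold change 1.11 ± 0.24, adjusted p = 0.00508), which was lost without A/J replicate 2 (log2 fold change 0.95) or BALB/cJ replicate 1 (adjusted p = 0.0505).

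**Figure D4:**
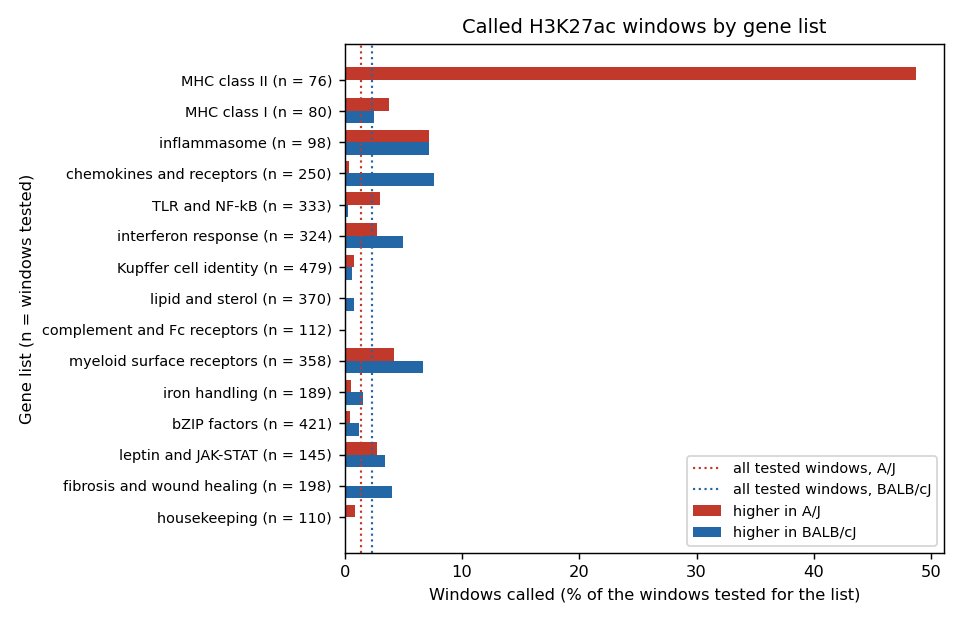
Bars give, for each gene list, the percent of its tested windows called higher in A/J (red) and in BALB/cJ (blue), with the number of windows tested beside the name, and dotted lines give the share of all tested windows, 1.43% and 2.3%. MHC class II stands out for A/J with 37 of 76 windows, and the chemokine, inflammasome, myeloid receptor, interferon, fibrosis, leptin and MHC class I lists have BALB/cJ bars beyond the dotted line of 2.3%.

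The promoters with the largest fold changes in favour of A/J among called ones with a mean of at least 50 there, 1 per gene, were those of *Nlrp1b*, *Nlrp1c-ps* and *H2-Ea-ps*, described above, and of 7 genes of several kinds. *Il21r*, the interleukin-21 receptor, was at 110, 101 and 114 in A/J against 10.1, 11.4 and 6.57 in BALB/cJ, with C57BL/6J at 52.0, 37.3 and 61.1, 3 levels without overlap (log2 fold change 3.61 ± 0.33, adjusted p = 4.53e-08). *Fblim1*, which encodes the filamin-binding protein migfilin, was at 569, 350 and 503 in A/J against 103, 41.2 and 96.4 in BALB/cJ, with C57BL/6J at 412, 317 and 574 (log2 fold change 2.51 ± 0.29, adjusted p = 2.46e-06). At *Ifitm10* the promoter had 75.8, 71.2 and 48.5 against 10.1, 4.58 and 0.730 (log2 fold change 3.63 ± 0.50, adjusted p = 3.21e-05). The others, *Enpp5*, *BC022687*, *Myadm* and *Gimap6*, had log2 fold changes from 2.27 to 3.91. For BALB/cJ, with the same minimum, *Ifi208* and *Ifi205* led, followed by *Glrp1*, *AI467606* and *AI506816*, while the *Mefv* promoter, with a mean of 45.3, was under that minimum. *AI467606* was at 11, 5.93 and 1.94 in A/J against 83.6, 50.4 and 54.8 in BALB/cJ, with C57BL/6J at 2.66, 4.66 and 2.52 (log2 fold change −3.33 ± 0.46, adjusted p = 2.34e-05), a mark of BALB/cJ alone. *Cd63*, a tetraspanin of late endosomes, was at 21.3, 5.93 and 11 against 82.7, 71.0 and 91.3, while C57BL/6J had 9.33, 0 and 6.93 (log2 fold change −2.51 ± 0.39, adjusted p = 0.000106). *Nos1ap*, *Eno4*, *Cdc14b* and *Nub1* had log2 fold changes from −2.77 to −2.38.

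Some differences ran over several windows of a locus. The genes with the most windows called for A/J were *Ly6e* (11 of 25 windows), *Myo10* (10 of 23), *Pim1* (9 of 20) and *Pde4b* (8 of 50). *Myo10*, an unconventional myosin of filopodia, was at 311, 166 and 281 in A/J against 3.38, 6.87 and 8.03 in BALB/cJ, with C57BL/6J at 7.99, 9.31 and 3.78 in the window at −59147 bp (log2 fold change 5.39 ± 0.37, adjusted p = 6.95e-10), with input of 28.5 and 24 tags. *Pim1*, a kinase induced by cytokines, was at 111, 101 and 102 against 16.9, 13.7 and 16.1 in a window at −56868 bp (log2 fold change 2.71 ± 0.30, adjusted p = 8.14e-07). In the *Pde4b* window at −52024 bp counts were 163, 139 and 164 in A/J and 0 in every BALB/cJ library, at least 155-fold, where input was 33.5 and 5.5 tags. Input was also lower in BALB/cJ at other called windows of *Pde4b*, with 43.0 and 4.0 tags at −35871 bp and 28.0 and 3.5 tags at −54418 bp. For BALB/cJ they were *Mir6897* (11 of 12), *Klf9*, *Colec12* and *Ccl6* (9 each) and *Arg2* (8 of 10). *Arg2*, the mitochondrial arginase, was at 31.7, 11.9 and 31.7 in A/J against 129, 149 and 129 in BALB/cJ, with C57BL/6J at 53.3, 46.6 and 57.9 in the window at 7307 bp (log2 fold change −2.27 ± 0.28, adjusted p = 5.12e-06). *Klf9*, a transcription factor that responds to glucocorticoids, was at 58.2, 35.6 and 64.7 against 188, 197 and 225 in an exon at 877 bp (log2 fold change −1.87 ± 0.24, adjusted p = 7.18e-06), and at 249, 212 and 237 in C57BL/6J. *Colec12*, a scavenger receptor with a collagen stalk, was at 30.2, 29.7 and 16.8 against 118, 105 and 189 (log2 fold change −2.51 ± 0.31, adjusted p = 4.4e-06). *Spag9*, a scaffold of JNK signalling, had 11 of 16 windows called, 4 for A/J and 7 for BALB/cJ.

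Large distal differences in windows with input in both strains include those whose sequences are printed above. The *Tmem38a* window (chr8:72582753-72583753) was at 78.0, 125 and 105 in A/J against 0, 6.87 and 2.19 in BALB/cJ, with C57BL/6J at 119, 126 and 130 (log2 fold change 5.53 ± 0.47, adjusted p = 1.49e-08). The *Trmt61a* window (chr12:111693991-111694991) was at 0.736, 0 and 1.94 in A/J against 159, 169 and 158 in BALB/cJ, with C57BL/6J at 192, 196 and 204 (log2 fold change −6.91 ± 0.40, adjusted p = 9.08e-11). In both, C57BL/6J was near the marked strain. At the *Myog* window (chr1:134304341-134305341) the counts were 2.21, 2.97 and 0.647, 91.2, 124 and 102, and 101, 130 and 101 in the same order (log2 fold change −5.95 ± 0.43, adjusted p = 1e-09). At the *Spag9* window (chr11:94074042-94075042) they were 3.68, 2.97 and 3.88, 282, 103 and 193, and 370, 112 and 497 (log2 fold change −5.69 ± 0.72, adjusted p = 0.000789). The *Ypel3* and *Kif2c* windows and the *Cd300ld* window at 7827 bp differed as much but had the mark in BALB/cJ alone. At the *Ypel3* window BALB/cJ had 182, 195 and 152 counts against 2.94, 2.97 and 4.53 in A/J, while C57BL/6J had 4.00, 2.33 and 1.26 (log2 fold change −5.52 ± 0.37, adjusted p = 6.95e-10). Input was 39.5 tags in A/J against 11.5 in BALB/cJ at *Ypel3*, and 15.0 against 25.5 at *Kif2c*. *Purb* and *Myo1f* had distal windows marked in A/J, with log2 fold changes of 6.01 and 5.96.

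In the 8 called windows with the most H3K27ac in each direction, 1 per gene, log2 fold changes were 1.08 to 2.51 where A/J was higher and −1.92 to −1.05 where BALB/cJ was. *Bhlhe41*, a transcription factor of self-renewing macrophages, had 157, 71.2 and 140 counts in A/J against 452, 343 and 590 in BALB/cJ, with C57BL/6J at 61.3, 23.3 and 75.6 at its promoter (log2 fold change −1.86 ± 0.30, adjusted p = 0.000235). *Phyh*, a peroxisomal enzyme of phytanic acid breakdown, was at 135, 142 and 185 against 313, 343 and 428 at its start (log2 fold change −1.22 ± 0.24, adjusted p = 0.00161). For A/J the highest was the *Btbd9* promoter at 1536, 1744 and 1687 against 436, 407 and 508 (log2 fold change 1.87 ± 0.24, adjusted p = 9.97e-06), with scaled input of 97.8 in A/J against 33.7 in BALB/cJ. The window at −12950 bp of *Gdf15*, a stress-induced cytokine, was at 691, 430 and 658 against 226, 68.7 and 164 (log2 fold change 1.92 ± 0.38, adjusted p = 0.00596), and without BALB/cJ replicate 3 the adjusted p was 0.0722.

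**Figure D5:**
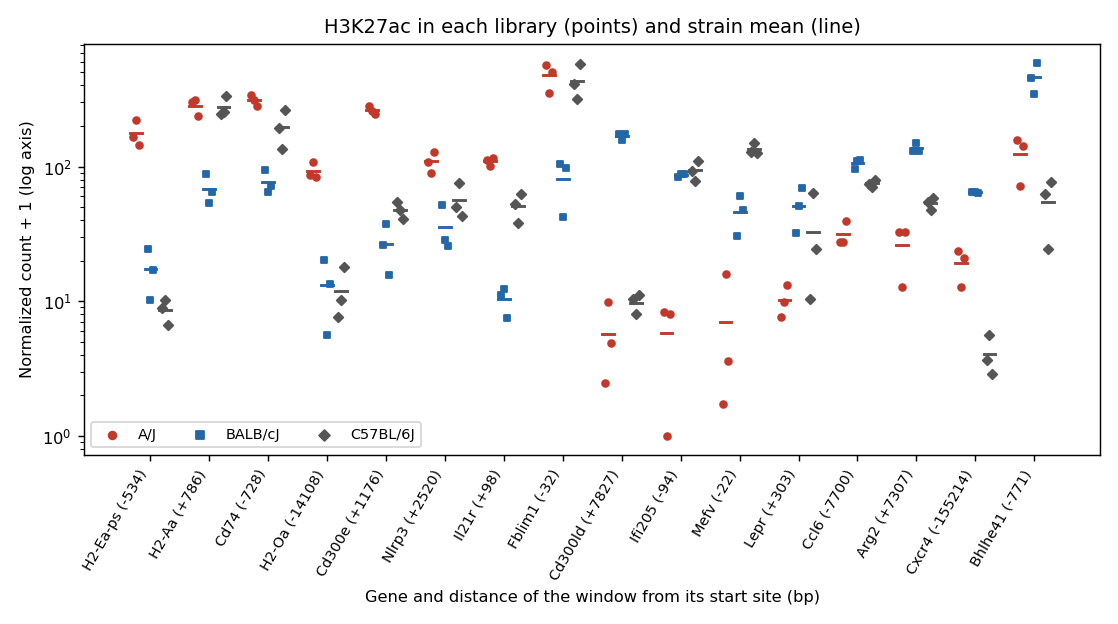
Points are the normalized counts plus 1, on a log axis, of the single A/J (red circles), BALB/cJ (blue squares) and C57BL/6J (grey diamonds) libraries in 16 windows described in the text, with lines at the strain means. The A/J and BALB/cJ points do not overlap in any of the 16 windows, which was largely fixed by choosing them among called windows. C57BL/6J lies near A/J at *H2-Aa* and *Fblim1*, near BALB/cJ at *Ifi205* and *H2-Oa*, and apart from both at *Mefv* and *Cxcr4*.

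Input differed by more than 2-fold between A/J and BALB/cJ, or was under 3 tags in either, in 2041 tested windows (3.46%) and in 150 of the called windows (6.82%). In 121 of the 150 the strain with less H3K27ac also had less input, and in 29 the other. No input tag was seen in 1 strain in 11 called windows and in 14 tested ones, in BALB/cJ at 9 (3 at *Nlrp1b*, and 1 each at *Nlrp1c-ps*, *Tcte3*, *Pik3c3*, *Gon4l*, *Gm13286* and *Pirb*) and in A/J at 2 (*Ifi213* and *Tmsb10*). These windows were named after their values were seen. Without the windows of unequal input 770 were called for A/J and 1258 for BALB/cJ.

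C57BL/6J, the third strain, divided the called windows. Of the windows higher in A/J, its mean was within 2-fold of A/J alone in 44.8%, of BALB/cJ alone in 28.9%, of both in 16.7% and of neither in 9.62%. Of those higher in BALB/cJ it was within 2-fold of A/J alone in 32.5%, of BALB/cJ alone in 36.9%, of both in 20.2% and of neither in 10.3%. The C57BL/6J libraries took part in the fit through the spread and through the normalization, which was computed over the libraries of all strains.

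Of 16 genes chosen from those that the study itself named from these and other libraries, which is no independent evidence, 14 had a tested window. The study named them from several comparisons, RNA levels and responses to LPS among them, and not all for A/J against BALB/cJ. Of the 119 windows near these genes, 24 were called (20.2%, beside 3.73% of all windows), 14 for A/J and 10 for BALB/cJ. Without A/J replicate 1 or BALB/cJ replicate 3 the latter count was 5 and 4. Those for A/J lay at *Cd300e* (6), *H2-Ab1* (4), *Tnfaip3* (3) and *Plac8* (1), and those for BALB/cJ at *Mefv* (4), *Lepr* (4), *Cxcr4* (1) and *Trem2* (1). The *Plac8* promoter had 23.6, 32.6 and 33.0 counts in A/J against 12.7, 9.16 and 6.57 in BALB/cJ (log2 fold change 1.62 ± 0.40, adjusted p = 0.0144), and 93.3, 51.2 and 98.2 in C57BL/6J, and without BALB/cJ replicate 3 the adjusted p was 0.165. *Atf5*, *Ccl5*, *Cd40*, *Fads1*, *Irak3* and *Med21* had no call, with adjusted p of 0.181 or more in their named windows, and *Cxcl14* and *Slc7a2* had no window above the filter. Of the 5 tested genes on a short list of alleles known to differ between inbred strains, *Nlrp1b* alone was called, in the windows without BALB/cJ input described above. *Slc11a1*, the phagosomal metal transporter Nramp1, had 359, 300 and 284 counts at its start in A/J against 429, 298 and 283 in BALB/cJ (log2 fold change −0.10). *Zhx2*, which BALB/cJ carries in a hypomorphic form, was at 420, 380 and 629 against 537, 433 and 863 (log2 fold change −0.36, adjusted p = 0.647), *Dysf*, which is disrupted in A/J, at 76.6, 80.1 and 45.9 against 38.8, 91.6 and 57 (log2 fold change 0.14), and *Naip5*, the flagellin sensor with a permissive A/J allele, at 37.5, 53.4 and 40.1 against 55.7, 59.5 and 51.8 (log2 fold change −0.40).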

How the data were processed

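H3K27ac ChIP–seq of 9 parental Kupffer cell libraries was used, 3 per strain, with the pooled ChIP inputs of each strain. The C57BL/6J libraries served the normalization and the estimate of the spread. According to the authors' methods, Bowtie2 aligned reads to a genome made for each strain (mm10 with its small variants), MMARGE shifted them back to mm10, and HOMER wrote raw tag counts for the 1000 bp centred on each merged ATAC-seq peak. The counts of replicates 1 and 3 are whole numbers as deposited. Replicate 2 and the inputs are expected counts in steps of 0.5 as deposited, and how the fractions arose is not given in the sources used here. They were rounded to whole counts. Versions of the authors' tools are not given in the sources used here.

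Windows with a mean normalized count over 16 in the 6 A/J and BALB/cJ libraries were kept on all chromosomes (60174) and fitted together in all 9 libraries with edgeR 4.0.16 (R 4.3.3; TMM, robust quasi-likelihood F test), and p-values were adjusted by Benjamini-Hochberg over all of them. The 58970 autosomal windows are reported. A window was called at an adjusted p under 0.05 and more than 2-fold. Normalization divided each count by its TMM-scaled library size and multiplied it by the mean of those sizes, and the SE is the absolute log2 fold change over the square root of F. The biological coefficient of variation was 0.213. A strain without a tag was given a floor of 3 counts over its libraries, and floors cover counting error only.

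Same-numbered A/J and BALB/cJ libraries deviated together from the strain means (correlations of 0.424, 0.378 and 0.322, and 0.240 to 0.424 in the 9 pairs among all strains). Replicate numbers were therefore taken as pairs in an added fit with the number as a block. The main fit held strain without a block, and p-values come from it unless another setting is named. The block fit is given where it moves a count for a list by over 1.5 times or to or from 0. Replicate numbers come from the labels. Other alternatives were DESeq2 1.42.0, library totals, other filters, the 6 libraries alone, windows of like input, a 4-fold threshold, 1 window per overlapping run and each library left out.

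Members, gene lists and tests were chosen with earlier results of these data known. Windows were named by rule, with 1 window per gene and no *Gm* or *Rik* symbols, among called windows whose libraries do not overlap: per direction, the 10 promoter windows with the largest fold and a mean of at least 50, the 8 genes with the most called windows, the 8 windows with the highest mean, and the 6 windows over 1000 bp from a start site with the largest fold and a mean of at least 100. To these were added, per list and direction, up to 4 members of lowest adjusted p. Every tested gene of the list of known alleles, and of a list of 16 genes chosen from those the study named, was added too. The study named further genes that are not on that list. Other windows of named genes, and windows without input, were given after their values were seen. *Hc* was not analysed here. The values of some genes that the rule or the lists named are not reported here.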

Additional observations from a re-analysis of the deposited data

How the results depend on the processing

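The counts of 842 windows called for A/J, 1356 for BALB/cJ, and 76 and 122 promoter windows stayed within 1.5 times of these values with DESeq2, library totals, other filters, the 6 libraries alone and windows of like input. At 4-fold, which by construction asks more, they were 300, 409, 27 and 23. With 1 window per overlapping run, chosen after the data were seen, the promoter counts were 48 and 78, fewer windows being tested. The replicate block gave 187 promoter windows for BALB/cJ, kept 99.55% of the calls and changed no other call of a window named by the rule. With libraries left out in turn (replicate 2 of all strains together included), the counts ranged from 536 to 976 for A/J, 782 to 1619 for BALB/cJ, 60 to 84 and 62 to 144 for promoters, lowest without BALB/cJ replicate 3 and highest without replicate 2. Without BALB/cJ replicate 3, 57.96% of the calls were kept, and the cause was not tested.

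With the 4-fold threshold left aside, 85 of the 119 called windows named by the rule kept the call in every alternative that tested them. The other 34 lost it in at least 1, and at 4-fold 63 of the 119 lost it. A window that was not tested in an alternative was not counted as lost there. Among the windows named by the rule, signs reversed at 7, none of them called, with log2 fold changes of −0.11 to 0.14 at 6 and 0.54 at the *Dysf* window at 12090 bp. The *Ccl5* window at −2907 bp was −0.000548 with DESeq2, −0.0121 with library totals, −0.006905 with the block and −0.1824 to 0.3145 with libraries left out. The other ranges with libraries left out were −0.009386 to 1.011 and −0.1211 to 0.4458 at *Dysf*, −0.2188 to 0.1227 at *Slc11a1*, −0.3699 to 0.1492 at *Fads1*, −0.1568 to 0.1124 at *Med21* and −0.1824 to 0.06985 at *Tnfaip3*, and the cause was not tested. Replicate 2, with 2291426 and 2960953 tags in windows, limits what low windows can show, since 1 tag there is worth more normalized counts than in the other libraries.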

Other observations

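Motifs of macrophage factors were counted, on either strand, in the central 200 bases of the reference under all 58970 windows, as a description of sequence that overlapping windows share in part. The letters of an interferon regulatory factor element, a pair of GAAA with 2 bases between, stood in 4.65% of all tested windows, in 8.43% of those called for A/J and in 3.61% of those called for BALB/cJ. TGANTCA, the AP-1 element, stood in 11.8%, 13.1% and 16.7%, and CACGTG, the E box bound by factors such as MITF, TFEB and USF, in 5.50%, 4.51% and 7.82%. For GAGGAAGT, the PU.1 core, the shares were 8.03%, 9.38% and 7.45%, and for TTGCNNAA, the C/EBP element, 10.9%, 11.6% and 12.5%. GATTGG, the Y box, stood in 7.97%, 6.18% and 5.83%. Promoter windows were rarer among called windows, which bears on such shares. In windows over 1000 bp from a start site alone, the interferon regulatory factor letters stood in 5.47% of 41265 windows, 9.45% of the 730 called for A/J and 3.93% of the 1171 called for BALB/cJ, and the AP-1 letters in 14.6%, 14.1% and 18.2%. The GC content of the same bases was 52.2% in all windows, 48.8% in those called for A/J and 50.2% in those called for BALB/cJ. These shares come with no test, and no match says that a factor bound.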
